A study of Homo sapiens with 4 samples.

Results

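The genes described here are 10 members of the insulin-like growth factor (IGF) and insulin system, out of 20098 protein-coding genes on chromosomes 1 to 22 and X. They were chosen by name, with earlier results of these data known, among them the wide SSRP1 peak at IRS2. They are the ligands IGF1 and IGF2, the receptors IGF1R, IGF2R and INSR, the adaptors IRS1 and IRS2, and the binding proteins IGFBP2, IGFBP3 and IGFBP5. Peaks were read in 3 places: within 2.5 kb of a transcription start site (TSS), over the gene, and within 100 kb of it. The study profiled SK-N-MC, an established line labelled as Ewing sarcoma, by ChIP-seq, which sequences the DNA bound to an immunoprecipitated protein. Cells in MEM with fetal bovine serum and antibiotics, with no treatment or genotype named in the labels, gave 1 library each for FLI1, SSRP1 and acetylated histone H3 lysine 27 (H3K27ac), and 1 input library. Each target thus has no replicate, and every value below describes that library.

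IGF1 and IGF2 are secreted peptides that activate the receptor tyrosine kinase IGF1R, while insulin acts chiefly on INSR. The activated receptors phosphorylate IRS1 and IRS2, which recruit phosphoinositide 3-kinase and so switch on AKT and mTOR. IGF2R clears IGF2 from the cell surface, and the IGF-binding proteins hold the ligands and limit or prolong their action. Ewing sarcoma cells are known to depend on signalling through IGF1R, and the fusion protein EWS-FLI1, which a FLI1 antibody can recognise, binds ETS sites and runs of GGAA. SSRP1 is a subunit of FACT, a complex that moves histones out of the way of polymerases and puts them back. H3K27ac marks active promoters and enhancers.

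A peak is a stretch the authors' caller found enriched over input, and the lists give its position only. Peaks are therefore ranked by width below, and whether width follows the strength of enrichment was not tested. There were 36305 peaks for FLI1 (median width 283 bp), 19855 for SSRP1 (403 bp) and 37195 for H3K27ac (653 bp). Among Ewing sarcoma marker genes, 6 of 6 (NR0B1, NKX2-2, STEAP1, PRKCB, CCND1 and GLI1) carried FLI1, SSRP1 and H3K27ac within 2.5 kb of a TSS. All 3 lay there at 17.3% of all protein-coding genes. The marker lists were chosen with earlier results of these data known, so the counts describe the libraries and do not test the label. Of 14 markers of neuroblastoma, blood, epithelial, liver and endothelial cells, 0 carried all of them. H3K27ac lay at HAND2 alone, against 57.9% of all genes. FLI1 lay at 5 of the 14, against 29.0%, and SSRP1 at 3, against 35.8%, with both at EPCAM and KDR. FLI1 alone thus did not set these 14 apart from all genes.

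H3K27ac lay within 2.5 kb of a TSS at 8 of the 10 genes, against 57.9% of all protein-coding genes. FLI1 lay at 6 of the 10 (IGF1R, IGF2, IGF2R, IRS1, IRS2 and IGFBP2), against 29.0%, and SSRP1 at 5 (IGF1R, IGF2, INSR, IRS1 and IRS2), against 35.8%. Within 1 kb of a TSS, FLI1 lay at 3 of the 10, against 24.5% of all genes. IGF1R, IRS1 and IRS2, the main IGF receptor and both adaptors, carried all 3, which 17.3% of genes did. With windows of 1 kb, 2 of the 10 carried all 3, against 15.1% of genes. IRS1 dropped out, since its FLI1 peak lay 2138 bp from the TSS. IGFBP3 was the 1 member with none, as were 34.7% of all genes. The median number of TSSs was 1.5 in these genes and 2 over all genes. The limit of 2.5 kb passed close to a few peaks. The SSRP1 peak of IGFBP5 lay 2854 bp from its TSS and a second FLI1 peak of IGFBP2 lay 2609 bp away, both outside. Just inside were an SSRP1 peak of IRS1 at 2418 bp and an H3K27ac peak of IGFBP5 at 2363 bp.

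Around the canonical TSS, H3K27ac covered 79.2% of the window of 2.5 kb on each side at IRS2 and 76.0% at IGF1R. The share was 56.8% at IGF1, 52.7% at IRS1, 46.7% at IGFBP2, 45.0% at IGFBP5, 37.5% at INSR and 26.3% at IGF2R. IGF2 and IGFBP3 had no H3K27ac there. The median covered length was 2294 bp in the 10 genes and 657 bp over all genes. SSRP1 ran from 58.0% at IRS2 through 35.3% at IGF1R, 19.5% at IRS1 and 14.5% at INSR to 0 at the other 6. Its median covered length was 0 bp both in the 10 genes and over all genes. For FLI1, IRS2 stood at 38.6%, and IGF2R, IRS1, IGF1R and IGFBP2 lay between 4.6% and 9.36%. The median covered length for FLI1 was 115 bp in the 10 genes and 0 bp over all genes. IRS2 ranked first of the 10 for each target, and its wide SSRP1 peak was known when the genes were chosen.

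**Figure D1:**
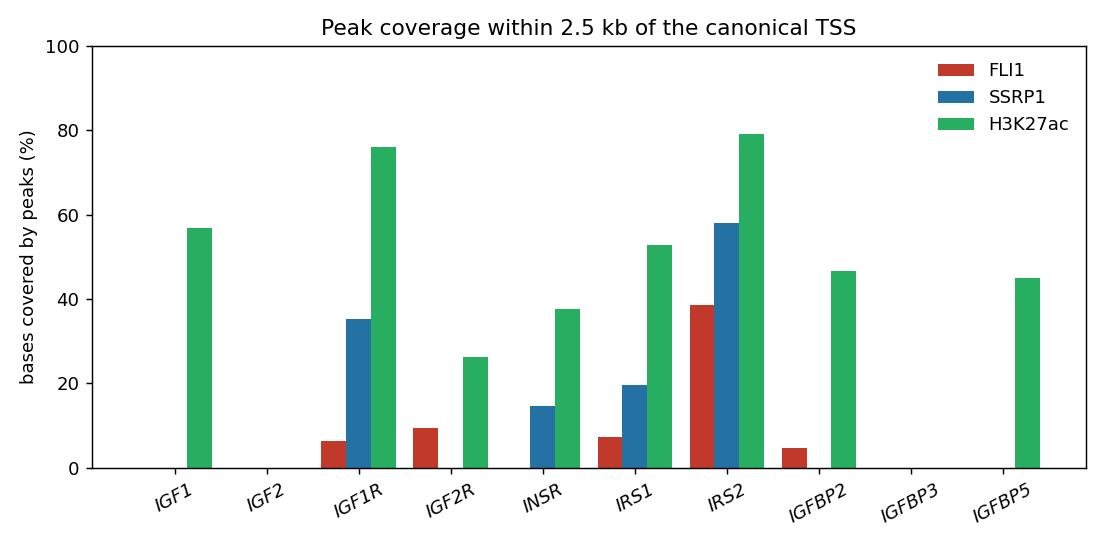
Share of bases (%) within 2.5 kb of the canonical TSS of each gene that lie under FLI1 (red), SSRP1 (blue) or H3K27ac (green) peaks, 1 library per target. IRS2 has the tallest bar for each target (38.6%, 58.0% and 79.2%), and IGF2 and IGFBP3 have none.

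The GC content of the promoter lay above the all-gene median at 9 of the 10 genes and the CpG ratio at 8, the exceptions being IGF1 for both and IGFBP5, at 0.436, for CpG. The median GC content of the canonical TSS window was 55.9% in the 10 genes and 49.5% over all genes, and the median ratio of observed to expected CpG was 0.703 against 0.474. IGF1 had the lowest values, 40.3% GC and a ratio of 0.168, and its promoter was acetylated without FLI1 or SSRP1. IGF1R and IRS2 had the highest CpG ratios, 0.974 and 0.973, and both carried all 3 peaks. IRS1 also carried all 3, at a ratio of 0.689, while IGFBP3, at 0.717, carried none. IGF2, at 67.4% the richest in GC, had no peak of any kind within 2.5 kb of its canonical TSS. These genes were also long, with a median of 51199 bp against 27256 bp, which gives peaks over the gene more room.

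IGF1, the growth hormone-regulated ligand, lies on the minus strand of chromosome 12 (102789652 to 102875522, hg19). Within 2.5 kb of its TSSs lay 3 H3K27ac peaks of 725, 1451 and 667 bp, and no FLI1 or SSRP1 peak. All 3 targets came together far inside the gene instead, where a FLI1 peak of 481 bp (102813138 to 102813618) and an SSRP1 peak of 317 bp (102813048 to 102813364) shared 227 bp. This site lay 58.8 kb from the nearest TSS, within a 4964 bp H3K27ac peak that ranked 510 by width among all H3K27ac peaks. The FLI1 peak covered the whole 182 bp coding exon 3, and the SSRP1 peak 78 bp of it. The noncoding RNA gene LINC02456 overlaps the same stretch. That H3K27ac peak belonged to a group of 6, less than 10 kb apart, over 11.7 kb. The other FLI1 peak of IGF1, 256 bp wide and 41.5 kb from a TSS, met neither SSRP1 nor H3K27ac.

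IGF2, an imprinted fetal growth factor on chromosome 11 (2150342 to 2179621, minus strand), had the opposite make-up. No H3K27ac peak lay over the gene or within 100 kb of it, as for 12.8% of all genes. A FLI1 peak of 516 bp (2172582 to 2173097) and an SSRP1 peak of 459 bp (2172938 to 2173396) overlapped by 160 bp in an intron, 1773 and 2129 bp upstream of the nearest of its 9 TSSs. They were the only FLI1 and SSRP1 peaks over the gene and within 100 kb of it. FLI1 and SSRP1 without H3K27ac at a TSS was a rare state, found at 1.28% of all genes. With 9 TSSs, against a median of 2 over all genes, IGF2 had more windows that could meet a peak. Both peaks also lay slightly nearer to a TSS of another annotated protein-coding gene, at 1749 and 2105 bp. With the canonical TSS alone, IGF2 carried no mark. The intron is also part of the INS-IGF2 readthrough gene, and INS, the insulin gene next to it, had no peak at a TSS.

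The FLI1 sites shared with SSRP1 in both ligand genes are shown for their letters. Here and below, the central 300 bases of a FLI1 peak are given 5′ to 3′ on the plus strand of hg19, in lower case. Capitals mark an ETS core (CCGGAAG or CCGGAAA, either strand) or at least 2 GGAA in a row (GGAAGGAA, either strand); these motifs can overlap.
IGF1 exonic site, chr12:102813228-102813527: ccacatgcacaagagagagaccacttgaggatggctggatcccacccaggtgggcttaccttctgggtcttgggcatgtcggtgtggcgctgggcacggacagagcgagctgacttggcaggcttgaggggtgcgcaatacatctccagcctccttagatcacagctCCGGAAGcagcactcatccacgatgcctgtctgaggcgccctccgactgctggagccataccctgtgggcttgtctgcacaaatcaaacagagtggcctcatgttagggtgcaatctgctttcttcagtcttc
IGF2 intron, chr11:2172689-2172988: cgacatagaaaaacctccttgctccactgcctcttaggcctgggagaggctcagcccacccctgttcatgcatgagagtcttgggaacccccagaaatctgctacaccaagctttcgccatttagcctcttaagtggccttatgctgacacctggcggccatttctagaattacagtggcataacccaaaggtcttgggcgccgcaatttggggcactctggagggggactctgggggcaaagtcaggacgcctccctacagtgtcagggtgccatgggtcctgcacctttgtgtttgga
The IGF1 site held 1 ETS core, within the coding exon, and the IGF2 site neither motif. The other FLI1 peak of IGF1, not shown, held 2 consecutive TTCC. In windows of the same length centred on all 36305 FLI1 peaks, 7.45% held an ETS core and 5.71% a GGAA run of at least 2.

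IGF1R, the receptor of both ligands, spans 316 kb of chromosome 15 (99191768 to 99507759, plus strand). An H3K27ac peak of 3799 bp lay over its only TSS. SSRP1 lay on both sides of the TSS and not on it: a peak of 786 bp ended 216 bp upstream and a peak of 980 bp began 543 bp downstream, where it covered 500 bp of 5′ untranslated and 94 bp of coding sequence in exon 1. A FLI1 peak of 314 bp (99190782 to 99191095) lay wholly inside the upstream SSRP1 peak, 673 bp from the TSS. Over the gene as a whole there were 5 FLI1, 2 SSRP1 and 12 H3K27ac peaks. At least 1 FLI1, SSRP1 or H3K27ac peak lay over 44.4%, 40.4% and 61.4% of all genes, whose median length was 27256 bp. Those are shares of genes and not numbers of peaks, and a gene of 316 kb gives peaks more room.

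The introns of IGF1R held acetylated stretches that FLI1 met once. A 3005 bp H3K27ac peak 150 kb into the gene overlapped a FLI1 peak of 254 bp. Farther on, a group of 10 H3K27ac peaks spanned 30.0 kb, from 196 to 226 kb downstream of the TSS, and covered 8717 bp of it. This group met 1 SSRP1 peak of 498 bp and 0 FLI1 peaks. The other 4 FLI1 peaks over the gene, 227 to 545 bp wide, met neither SSRP1 nor H3K27ac. Of the 12 FLI1 peaks over or within 100 kb of IGF1R, 4 lay nearer to a TSS of PGPEP1L than to that of IGF1R.

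IGF2R, the scavenger receptor of IGF2 on chromosome 6 (160390114 to 160534539, plus strand), had FLI1 and H3K27ac without SSRP1. A FLI1 peak of 468 bp ended 114 bp upstream of the canonical TSS, within an H3K27ac peak of 1314 bp over that TSS. Another H3K27ac peak, of 688 bp, lay 434 bp from an internal TSS. No SSRP1 peak lay over the gene or within 100 kb, whereas 76.1% of all genes had at least 1 in that range. FLI1 and H3K27ac peaks occurred in that range at 84.4% and 87.2% of all genes, and at 10 and 8 of the 10 genes described here.

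INSR, the insulin receptor on chromosome 19 (7112266 to 7294425, minus strand), showed SSRP1 at its promoter and FLI1 deep in an intron. An SSRP1 peak of 724 bp covered a TSS inside 1873 bp of H3K27ac, and the nearest FLI1 peak lay 85.6 kb away. That FLI1 peak was 714 bp wide and held 9 consecutive GGAA. It lay in a group of 12 H3K27ac peaks that spanned 18.9 kb, 78.6 to 97.5 kb downstream of the canonical TSS. The group covered 13090 bp and met 3 FLI1 and 2 SSRP1 peaks. The run of GGAA lay entirely within a gap of 111 bp between H3K27ac peaks of 768 and 3166 bp, while the FLI1 peak reached into both. SSRP1 did not meet the repeat peak. It met the FLI1 peak at the far end of the group instead, where 311 bp of FLI1 and 320 bp of SSRP1 shared 292 bp, and a second SSRP1 peak of 770 bp stood beside it.

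**Figure D2:**
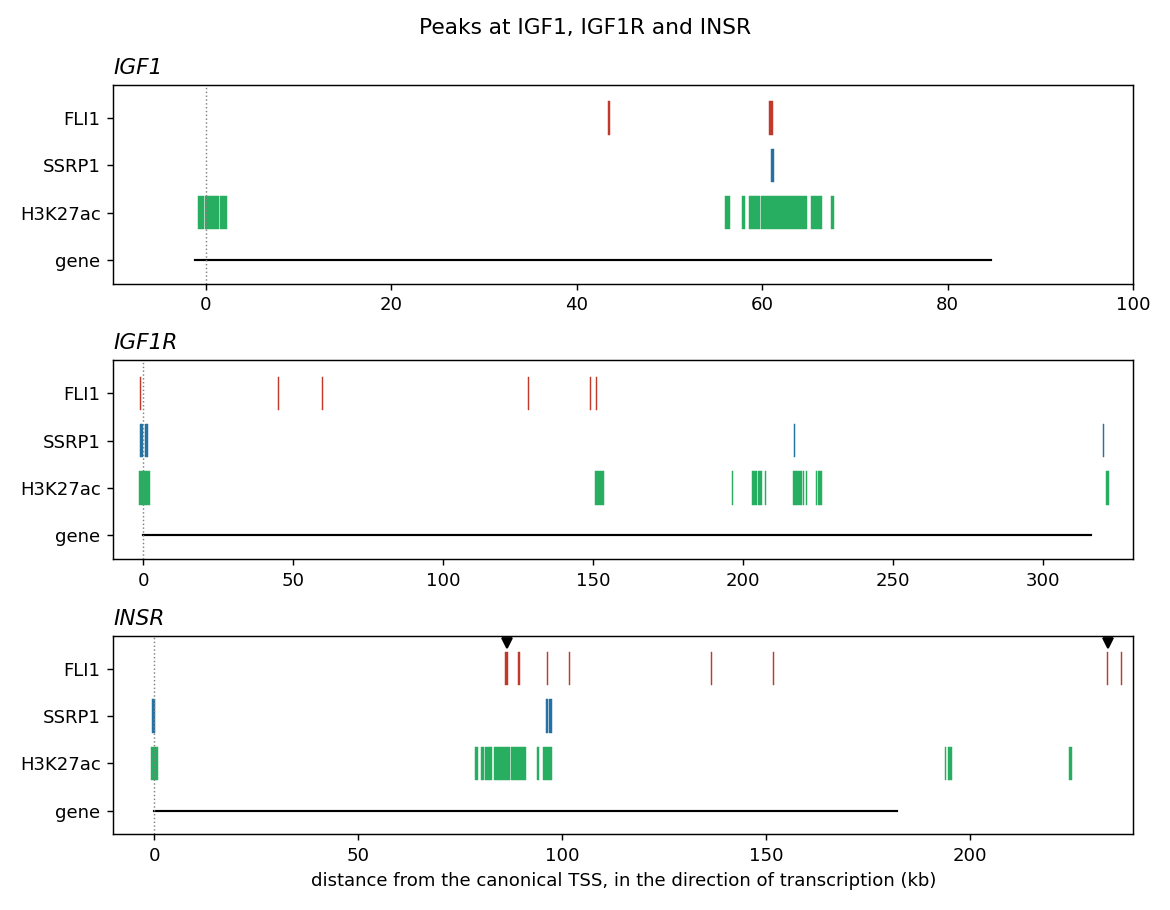
Peaks over IGF1, IGF1R and INSR by distance (kb) from the canonical TSS in the direction of transcription, with FLI1 in red, SSRP1 in blue, H3K27ac in green, the gene as a black line and FLI1 peaks with at least 4 consecutive GGAA under a black triangle. All 3 targets meet 60723 bp from the canonical TSS of IGF1 (58.8 kb from its nearest TSS), the 10 acetylated peaks from 196 to 226 kb into IGF1R lack FLI1, and 1 triangle stands over the acetylated group of INSR, with another past the end of the gene at MBD3L3.

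A second FLI1 peak with a repeat lay near INSR but belongs to different surroundings. It was 281 bp wide, held 11 consecutive TTCC (the other strand of GGAA), and lay in an intron of MBD3L3, 269 bp from a TSS of that gene. It met neither SSRP1 nor H3K27ac. Of its 50-base words, 98.7% occurred again elsewhere on chromosome 19, against 1.2% for the intronic INSR peak. These were the 2 FLI1 peaks with at least 4 consecutive GGAA among 52 over or within 100 kb of the 10 genes. Over the whole list 2.69% of FLI1 peaks held such a run.

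The receptor gene sites shared with SSRP1 are given in the same form.
INSR intron, shared with SSRP1, chr19:7197901-7198200: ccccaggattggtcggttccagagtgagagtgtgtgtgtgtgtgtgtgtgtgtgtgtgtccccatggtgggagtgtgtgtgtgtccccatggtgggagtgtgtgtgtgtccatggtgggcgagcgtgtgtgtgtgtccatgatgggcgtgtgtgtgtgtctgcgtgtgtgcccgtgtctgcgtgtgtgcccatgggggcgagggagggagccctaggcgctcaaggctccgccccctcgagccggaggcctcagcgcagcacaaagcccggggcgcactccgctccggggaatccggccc
IGF1R upstream, chr15:99190788-99191087: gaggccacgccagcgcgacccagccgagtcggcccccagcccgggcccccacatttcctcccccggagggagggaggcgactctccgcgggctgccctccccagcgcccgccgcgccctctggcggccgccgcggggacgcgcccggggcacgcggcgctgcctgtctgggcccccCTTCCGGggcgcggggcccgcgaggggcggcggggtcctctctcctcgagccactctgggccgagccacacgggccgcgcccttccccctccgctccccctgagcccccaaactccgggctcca
The IGF1R window was 80.7% GC and held an ETS core on the reverse strand. The INSR site held neither motif. Of all FLI1 windows of this length, 2.1% held at least 4 consecutive GGAA.

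IRS1 on chromosome 2 (227596028 to 227664536, minus strand) carries its coding sequence in exon 1, and all 3 targets lay over that exon. A FLI1 peak of 582 bp (227661817 to 227662398) lay wholly in coding sequence, 2138 bp from the TSS. It shared 302 bp with an SSRP1 peak of 344 bp, inside 1016 bp of H3K27ac. A wider SSRP1 peak of 892 bp lay 801 bp from the TSS and another, of 507 bp, 4316 bp from it. Each of the 3 SSRP1 peaks met H3K27ac, and no other SSRP1 peak lay within 100 kb. A FLI1 peak of 431 bp in the intron also met H3K27ac, while the 5 FLI1 peaks outside the gene met neither of the other targets.

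IRS2 had the most SSRP1 of the 10 genes by the number of peaks over the gene, the number in range and the share of bases covered. The gene lies on the minus strand of chromosome 13 (110405042 to 110438930) and has a large first exon with nearly all of the coding sequence, a long intron and a second exon that is almost wholly untranslated. A single SSRP1 peak of 5426 bp (110433451 to 110438876) ranked 2 by width among 19855, and was 13.5 times as wide as the median SSRP1 peak. It began 54 bp downstream of the TSS and covered all 4012 coding bases of exon 1, 476 bases of its 5′ untranslated region and 938 bp of the intron. FLI1 lay within it as 3 peaks of 591, 490 and 1248 bp, which covered 42.9% of its length. The 1248 bp peak, wholly coding, ranked 163 by width among FLI1 peaks. A narrow FLI1 peak of 227 bp and an SSRP1 peak of 452 bp lay upstream, 210 and 840 bp from the TSS, so neither protein had a peak on the TSS itself. H3K27ac covered the promoter and exon as 1 peak of 11427 bp, rank 35 of 37195.

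SSRP1 also continued through the IRS2 intron beyond the acetylated part. Besides the wide peak, 11 SSRP1 peaks of 286 to 1035 bp, with a median of 389 bp, lay over the gene between 110408027 and 110425384. The 1035 bp peak met an H3K27ac peak of 1154 bp. The other 10 lay toward the 3′ end over 15183 bp without H3K27ac and without FLI1, and the last of them covered 627 bases of the 3′ untranslated region. A further 3 SSRP1 peaks, of 656, 904 and 804 bp, lay 1829, 6078 and 7290 bp past the annotated end of the gene. They met neither FLI1 nor H3K27ac. In all, SSRP1 covered 30.7% of the IRS2 gene, against 0 to 2.74% of the other 9 genes.

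**Figure D3:**
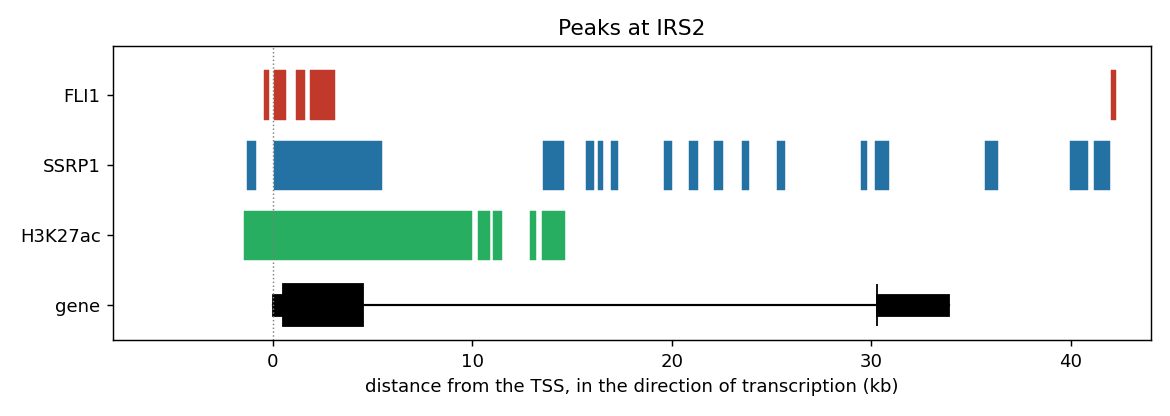
FLI1, SSRP1 and H3K27ac peaks at IRS2 by distance (kb) from the TSS in the direction of transcription; in the gene track, tall boxes are coding, low boxes untranslated and the line is the intron. The wide SSRP1 peak fills exon 1 with 3 FLI1 peaks inside the 11427 bp H3K27ac peak, and 10 narrow SSRP1 peaks follow over the intron and last exon where H3K27ac is absent.

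Few genes had as many SSRP1 peaks. At least 12 lay over 58 genes, or 0.289% of all protein-coding genes, and the median length of those was 148 kb against 33.9 kb for IRS2. Counting IRS2, 5 of the 58 were no longer than IRS2, and the others were TSPAN4, EPHB3, PTBP1 and MDFI, named after their values were seen. Among 11628 genes of at least 20 kb, 11 had as many SSRP1 peaks per kb as IRS2 or more, and 6 had as large a share of the gene covered, IRS2 included. The limit of 20 kb was not set in advance, and these ranks hold only above it. It leaves out PTBP1 (15.3 kb) and MDFI (17.4 kb), with 8.52 and 6.91 SSRP1 peaks per 10 kb, against 3.54 at IRS2. Over IRS2 and 100 kb on each side there were 68.4 SSRP1 peaks per Mb, against 3.49 on chromosome 13 as a whole, the lowest of the chromosomes of these genes. The 200 kb of flanks alone held 4 SSRP1 peaks, or 20.0 per Mb. For FLI1 the density was 47.0 per Mb with the gene, 40.0 in the flanks and 7.96 on the chromosome.

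**Figure D4:**
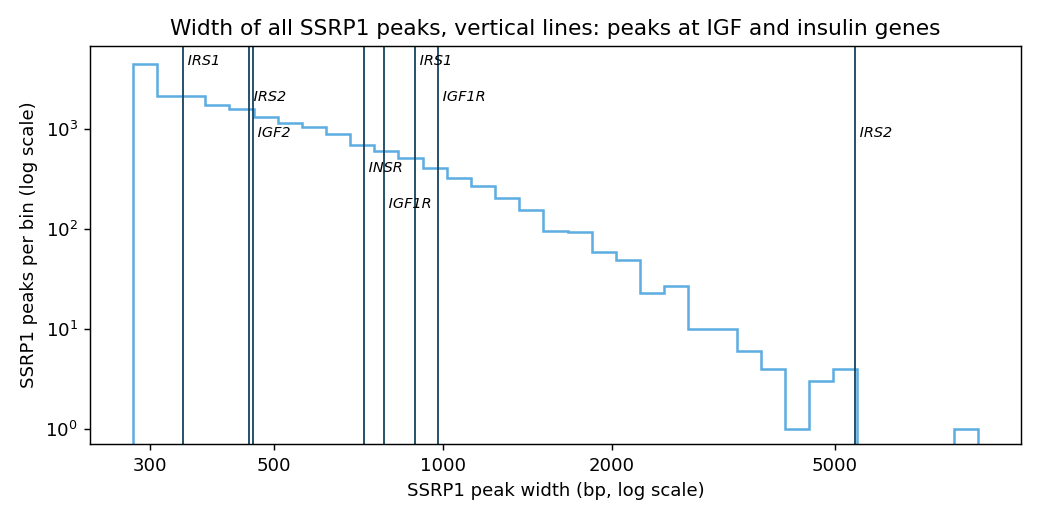
Number of SSRP1 peaks by width (bp), both axes logarithmic, for all 19855 peaks (blue outline), with vertical lines for the 8 SSRP1 peaks within 2.5 kb of a TSS of IGF1R, IGF2, INSR, IRS1 or IRS2. At 5426 bp the IRS2 peak stands in the far tail, whereas the other 7 lie between 344 and 980 bp.

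By the share of the TSS window under the 3 kinds of peak, the genes most like IRS2 were ZBTB7A, JADE2, SMAD6, GDF6 and ZNF580. At ZBTB7A, FLI1 covered 30.7%, SSRP1 58.7% and H3K27ac 78.6%, at a Euclidean distance of 8.0 percentage points over these 3 values. The next, JADE2, lay 8.13 away and the fifth 14.5. By the width of the SSRP1 peak at a TSS, the nearest genes were SAMD11 (5413 bp), GAPDH (4817 bp), SMIM47 (4736 bp), ARHGDIA (4231 bp) and ZNF703 (3943 bp). GAPDH encodes a glycolytic enzyme, and SMIM47 was the 1 gene of these 5 without H3K27ac at a TSS.

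The FLI1 sites in the coding exons of both adaptor genes are given for comparison.
IRS1 first exon, chr2:227661957-227662256: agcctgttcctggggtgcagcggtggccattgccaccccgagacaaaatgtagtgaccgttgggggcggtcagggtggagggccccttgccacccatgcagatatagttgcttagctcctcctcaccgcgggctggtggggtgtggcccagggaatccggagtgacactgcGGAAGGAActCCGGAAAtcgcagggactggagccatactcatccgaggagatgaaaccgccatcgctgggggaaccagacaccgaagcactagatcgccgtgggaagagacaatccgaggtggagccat
IRS2 first exon, chr13:110436279-110436578: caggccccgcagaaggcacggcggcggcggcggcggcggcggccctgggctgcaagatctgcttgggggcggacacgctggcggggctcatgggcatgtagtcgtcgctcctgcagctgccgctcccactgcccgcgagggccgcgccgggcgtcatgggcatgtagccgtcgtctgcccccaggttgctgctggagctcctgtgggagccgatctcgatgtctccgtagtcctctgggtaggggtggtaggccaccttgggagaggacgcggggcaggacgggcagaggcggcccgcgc
The IRS1 window held GGAAGGAA followed closely by an ETS core on the same strand. The centre of the widest IRS2 FLI1 peak held neither motif and was 73.0% GC. None of the 4 FLI1 peaks within 2.5 kb of the IRS2 TSS held an ETS core or 2 consecutive GGAA. Over the 10 genes, 8 of the 52 FLI1 peaks held an ETS core somewhere along their length, against 8.56% of all FLI1 peaks. A match is only a match of letters.

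The binding protein genes differed among themselves. IGFBP2 and IGFBP5 are neighbours on chromosome 2 in opposite directions (217497551 to 217529159 and 217536828 to 217560272), so their 100 kb surroundings overlap and peaks there count for both. IGFBP2, which carries IGFs in fluids, had 3 H3K27ac peaks in its TSS windows. A 1374 bp one began 13 bp from its canonical TSS, and the others were 2107 and 399 bp wide. Narrow FLI1 peaks of 230, 231 and 297 bp lay in its introns, and all met H3K27ac. No SSRP1 peak lay over IGFBP2. IGFBP5, which binds IGFs and extracellular matrix, had H3K27ac peaks of 1201, 1640 and 474 bp at its TSS and no FLI1 peak over the gene. Its 1 SSRP1 peak, 642 bp in an intron, met the 1201 bp H3K27ac peak.

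IGFBP3, the main carrier of IGFs in serum, lies on chromosome 7 (45951844 to 45961473, minus strand). No SSRP1 or H3K27ac peak lay over it or within 100 kb. A FLI1 peak of 227 bp, the smallest width in the list, lay 19.2 kb upstream of its TSS and held 2 ETS cores. Per Mb of chromosome 7 there were 11.8 peaks of FLI1, 6.54 of SSRP1 and 11.8 of H3K27ac, beside medians over chromosomes of 11.8, 6.81 and 12.3. IGF2 and IGFBP3 were the 2 genes of the 10 without H3K27ac in this range.

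Counted once each, 52 FLI1, 34 SSRP1 and 61 H3K27ac peaks lay over or within 100 kb of the 10 genes, a span of 2.73 Mb. The median gene of the 10 had 6 FLI1, 3 SSRP1 and 7.5 H3K27ac peaks in that range, against 4, 2 and 4 over all genes. FLI1 peaks there met SSRP1 in 9 of 52 cases (17.3%, 95% Clopper-Pearson interval 8.23 to 30.3), against 17.2% of all FLI1 peaks. They met H3K27ac in 16 of 52 (30.8%, 18.7 to 45.1), against 28.4%. Both intervals held the share of the whole list, although neighbouring peaks are not independent. Within 50 kb, 16 of 33 FLI1 peaks met H3K27ac (48.5%, 30.8 to 66.5), and 8 of 33 met SSRP1 (24.2%, 11.1 to 42.3). The 16 were the same peaks as within 100 kb, so the share rose because unshared peaks farther out were left out. Of the 16, 4 lay in the single wide H3K27ac peak of IRS2. These intervals too treat neighbouring peaks as independent, and 28.4% is the share of all FLI1 peaks at any distance from a gene. Of the 9 FLI1 peaks that met SSRP1, 7 lay over IGF1, IGF2, INSR, IRS1 or IRS2 and 1 just upstream of IGF1R. The other, 422 bp wide with 282 bp of SSRP1 inside, lay in an intron of RPL37A, 78.3 kb from a TSS of IGFBP2. H3K27ac lay at 7 of these 9 sites, and at neither the IGF2 nor the RPL37A site.

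SSRP1 peaks near these genes met H3K27ac in 15 of 34 cases (44.1%, interval 27.2 to 62.1), against 60.6% of all SSRP1 peaks. The 16 peaks of IRS2, of which 13 met neither FLI1 nor H3K27ac, set this share. Without them it was 12 of 18 (66.7%, 41.0 to 86.7). At IGF1, INSR and IRS1 every SSRP1 peak in range met H3K27ac.

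Many other genes of the pathway were marked too. Within 2.5 kb of a TSS, 27 of 54 other IGF and insulin signalling genes carried FLI1, 35 carried SSRP1 and 42 carried H3K27ac, beside the 29.0%, 35.8% and 57.9% of all genes given above. All 3 lay at 21 of the 54, against 17.3% of all genes, and by the canonical TSS alone at 19, against 15.8%. The median number of TSSs was 3 in the 54 genes and 2 over all genes. The 54 were also longer, with a median of 77267 bp against 27256 bp. Their median GC content was 53.7% against 49.5%, and their median CpG ratio 0.551 against 0.474. The part of these differences in the counts was not tested. Among 10 ligands, binding proteins and their proteases, IGFBP4, IGFBP6 and STC2 carried all 3, whereas INS, IGFBP1, IGFALS and PAPPA2 carried none. STC2 inhibits the protease that frees IGFs from IGFBP4. Among 12 adaptors and regulators at the receptor, GRB2, GRB10, PTPN1 and PHIP carried all 3 and IRS4 none. GRB10 restrains the insulin and IGF1 receptors, and PTPN1 dephosphorylates them.

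In the branch from phosphoinositide 3-kinase to mTOR, 18 of 21 genes had H3K27ac, 13 SSRP1 and 10 FLI1. Over all genes the shares were 57.9%, 35.8% and 29.0%, and 17.3% carried all 3. In this branch 7 of the 21 carried all 3. They were the kinase subunit genes PIK3CB, PIK3R1, PIK3R2 and PIK3R3, the phosphatases INPPL1 and PHLPP1, and RICTOR of mTOR complex 2. INPP5D, a phosphatase gene of blood cells, had none. Of 8 effectors, FOXO1, FOXO3, GSK3A, GSK3B and EIF4EBP1 carried all 3, and SLC2A4, the insulin-responsive glucose transporter gene of muscle and fat, carried none. The FOXO proteins are transcription factors that AKT keeps out of the nucleus. Of 3 genes of proteins that bind IGF2 mRNA, IGF2BP1 and IGF2BP3 carried all 3 and IGF2BP2 lacked FLI1.

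**Figure D5:**
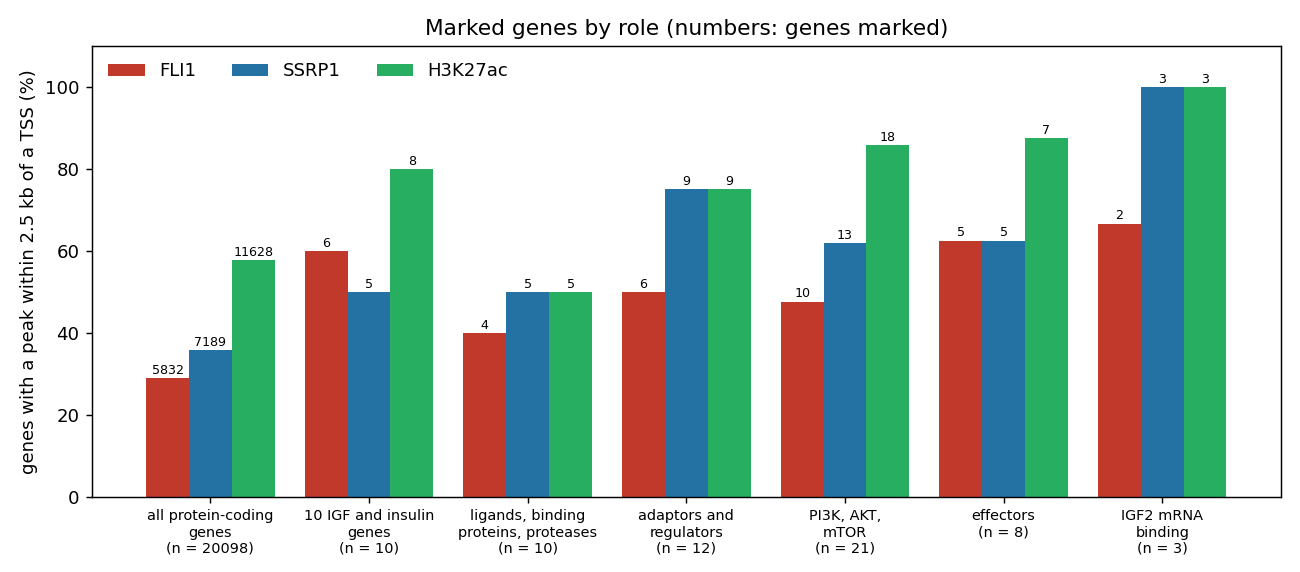
Share of genes (%) with a FLI1 (red), SSRP1 (blue) or H3K27ac (green) peak within 2.5 kb of a TSS, for all 20098 protein-coding genes, the 10 genes described here and the other genes of the pathway by role, with the number of marked genes over each bar. Every role has a higher SSRP1 bar than all genes, and the lowest H3K27ac bar is that of the ligand, binding protein and protease group, at 5 of 10.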

How the data were processed

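Each peak list holds chromosome, start, end and name only, and the authors deposited no score column. Per the series' design text, chromatin was cut with micrococcal nuclease and sonicated, reads were aligned to hg19 with Bowtie2 and peaks called in each library against input with MACS2 at a q-value limit of 0.05; the version, 2.2.7.1, is from the submitters' processing notes. Filters on duplicate or multiply mapped reads are not given in the sources used here. Repeated intervals were counted once, and chromosomes 1 to 22 and X used. TSSs were those of basic transcripts of protein-coding genes in GENCODE release 44 on GRCh37. Peaks counted as shared where their overlap made up 20% or more of either. No test was possible with 1 library per target, so counts stand beside all genes or all peaks, and intervals cover counting error only. Members and lists were chosen with earlier results of these data known. All members were named, as were pathway genes with all marks or none; IGF2BP2, and the printing of the IGF2 site, were picked after their values were seen. Other printed sequences are a selection of FLI1 peaks shared by all lists; the sequences of the peaks with a GGAA run are not reported here. Depth was not analysed here. Overlap functions were tested on simulated data. Software was pysam 0.24.0, scipy 1.17.1, pandas 2.3.3 and numpy 2.4.6 under Python 3.11.15. Alternatives were other TSS windows and overlaps, canonical TSSs, wider peaks, 50 kb surroundings, joined peaks and other run lengths.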

Additional observations from a re-analysis of the deposited data

How the results depend on the processing

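Counts of marked genes mostly held under other settings. In windows of 1 kb, FLI1 was found at 3 of the 10 genes in place of 6, SSRP1 at 4 and H3K27ac at 8, against 24.5%, 33.6% and 56.7% of all genes; with only peaks at or above the median width of their list, used in place of a stricter threshold since the lists give no score, 13 of the 54 other pathway genes carried all 3 in place of 21, against 9.92% in place of 17.3% of all genes. Wider peaks alone left 28 FLI1, 20 SSRP1 and 36 H3K27ac peaks near the 10 genes, and surroundings of 50 kb left 33 FLI1 peaks. The share of FLI1 peaks that met H3K27ac was 48.5% within 50 kb and 9.62% where at least 20% of both peaks had to be covered. A narrow FLI1 peak inside a much wider H3K27ac peak, such as 254 bp in 3005 bp at IGF1R, cannot meet that rule. The share of all FLI1 peaks under it is not given here, so 9.62% has no value to stand beside. Without the peaks near IRS2, an alternative chosen after seeing the data, 18 SSRP1 peaks were left and 66.7% of them met H3K27ac. The counts of peaks and genes could only fall under these settings by construction. The shares of 48.5% and 66.7% were instead higher than in the main setting, at 30.8% and 44.1%. The wide SSRP1 peak of IRS2 kept its 5426 bp when peaks less than 500 bp apart were joined, and the 2 GGAA-run peaks were counted alike with at least 3 or 6 repeats. No paired analysis was possible because each target has 1 library. Without replicates, no value here has a biological error.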

Other observations

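Several SSRP1 peaks near these genes lay away from both other targets and from any protein-coding gene. A pair of 397 and 289 bp lay 37.6 and 36.2 kb upstream of IGFBP2, over the long noncoding RNA gene LINC01280, and met neither FLI1 nor H3K27ac. An SSRP1 peak of 441 bp lay 99.9 kb upstream of IGF1R, likewise alone. By contrast, an SSRP1 peak of 333 bp 14.1 kb upstream of IGFBP2 overlapped an H3K27ac peak of 2356 bp.

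Of the 52 FLI1 peaks, 11 lay nearer to a TSS of a gene outside the 10 than to theirs, as did 4 of 34 SSRP1 and 16 of 61 H3K27ac peaks, so a place within 100 kb does not assign a peak to a gene.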
